A study of Mus musculus with 8 samples.

Results

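The SR splicing factors are a family of nuclear RNA-binding proteins, and 10 of their genes (Srsf1, Srsf2, Srsf3, Srsf4, Srsf5, Srsf6, Srsf7, Srsf9, Srsf10 and Srsf11) were looked up by symbol among the 11854 named entries of a table of gene expression in mouse haematopoietic stem cells (HSCs). All 10 were found, and all 10 passed the filter on low values that left 10989 genes for testing. The study compared HSCs from mice labelled Nupr1-/- with HSCs from wild type mice, both of strain C57BL/6. Nupr1 encodes a small, stress-induced chromatin protein. Each group had 4 libraries, 1 per mouse, made from polyadenylated RNA of cells sorted from bone marrow. The age and sex of the mice, the sorting gate and the deleted part of Nupr1 are not stated in the labels. The series title names the quiescence threshold of HSCs and p53 signalling.

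An SR protein carries RNA recognition motifs at its amino end and a tail rich in arginine and serine. It binds exonic splicing enhancers and, through the tail, helps recruit U1 and U2 auxiliary components to the neighbouring splice sites. Kinases of the SRPK family and the CLK family phosphorylate the tail, and the importer transportin SR (Tnpo3) brings the protein into the nucleus. Many SR genes limit their own output by including a conserved exon with an early stop codon, which sends the transcript to nonsense-mediated decay. A value per gene, as used here, does not separate such transcripts from those that encode the protein.

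The libraries labelled Nupr1-/- held 2296101 to 3959564 recovered reads and the wild type libraries 3340217 to 4769401. Nupr1 itself was read in all 8 libraries and did not part the groups, with 168 ± 35 normalised reads in libraries labelled Nupr1-/- and 246 ± 80.2 in wild type (SD, n = 4 each; limma adjusted p = 0.433). The differences given here are therefore between libraries as labelled, and p-values measure the spread between these mice. On the first principal component (25.6% of the variance), wild type library 2 was far from all others. All 14 HSC marker genes were present, with summed levels of 9850 to 12200 normalised reads in libraries labelled Nupr1-/- and 9960 to 13500 in wild type. Of 8 B cell markers 3 were in the table, summing to 213 to 380 in libraries labelled Nupr1-/- and 290 to 7630 in wild type. Wild type libraries 3 and 4 were highest (2120 and 7630), most of it Ighm, the heavy chain of immunoglobulin M. The B cell genes Cd79a, Ms4a1, Pax5 and Ebf1 were not among the entries used here. Of 6 tested megakaryocyte and platelet markers 4 rose with limma (Itga2b, Pf4, Gp9 and Vwf), the sum over the list being 4110 to 5040 in libraries labelled Nupr1-/- and 3560 to 4670 in wild type. Of 4 tested erythroid markers 1 rose (Klf1), with sums of 364 to 542 in libraries labelled Nupr1-/- and 240 to 571 in wild type. The part of these markers in the results was not tested. In bulk samples, fewer cells of a type and less RNA per cell cannot be told apart.

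Srsf10 was the single SR gene that fell in libraries labelled Nupr1-/-, to 216 ± 113 normalised reads against 475 ± 117 in wild type (SD, n = 4 each). The other 9 did not pass the test: Srsf1, Srsf4 and Srsf5 had means of 57.3% to 60.3% of the wild type mean, whereas Srsf3 and Srsf7 stood at 94.0% and 95.3%. In all, 0 of 10 rose and 1 of 10 fell (limma on log2 of the normalised value plus 1, Benjamini-Hochberg adjusted p under 0.05). Across all genes 3.80% passed (2.12% lower and 1.68% higher). By DESeq2 2 of the 10 fell (Srsf5 and Srsf10), with 4.99% lower among the 8850 genes that it gave an adjusted p. With limma-voom and sample weights 3 fell (Srsf4, Srsf5 and Srsf10, against 3.26% of all genes tested). Without wild type library 2 again 2 fell (Srsf5 and Srsf10, against 3.90% of all genes tested). The count was 0 with edgeR under TMM or RLE factors, with a trend in GC content removed, and in 5 of the 8 leave-one-out fits. Of the 10 log2 differences 9 lay below 0 (90.0%), against 48.7% among all genes tested, with a median of -0.29 for the family and 0.03 for all genes. The unadjusted p was under 0.05 in 4 SR genes (40.0%) and in 19.7% of the tested genes.

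Added together, the 10 genes gave 8848 to 9884 normalised reads in libraries labelled Nupr1-/- and 10382 to 13500 in wild type. This was 0.265% to 0.303% of all normalised reads in the libraries labelled Nupr1-/- and 0.306% to 0.410% in wild type, so the summed levels did not overlap. Among single genes tested, 5.91% were lower without overlap, and 11.7% did not overlap in either direction. A sum of 10 genes is unlike a single gene, and sums of 10 other genes were not looked at, so these shares are not its background. The part of a trend in GC content in the sum was not tested. Wild type library 2 gave the highest value of the 8 libraries for 6 of the 10 genes. None of the libraries labelled Nupr1-/- was highest for any of them. The same counts were not made over all tested genes, where wild type library 2 also stood apart, so they do not mark the family.

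**Figure D1:**
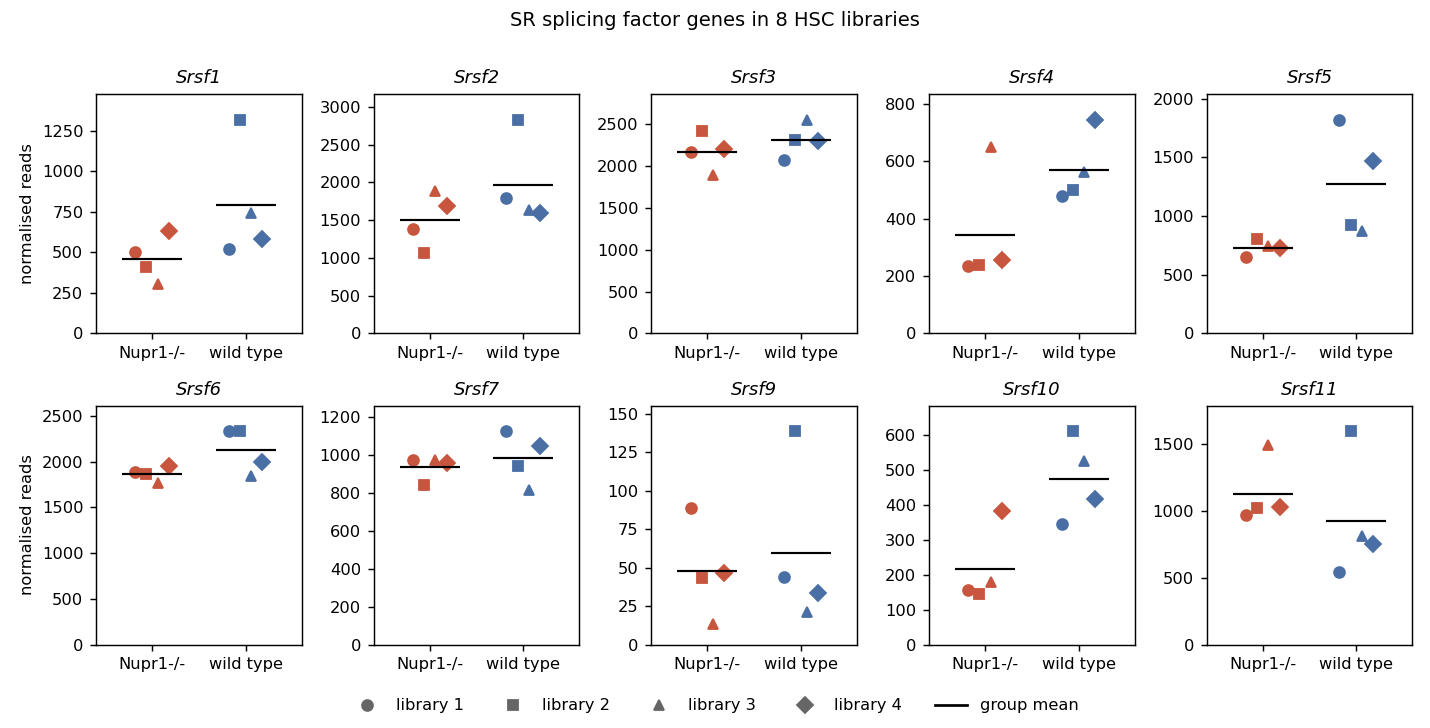
Normalised reads of the 10 SR genes in each library, with the group mean as a line and 1 symbol shape per library number, which is not said to pair mice. Srsf5 is the gene whose values did not overlap between the genotypes, and single libraries stand far from their group for Srsf4 (648.5 in library 3 labelled Nupr1-/-) and Srsf10 (383.3 in library 4 labelled Nupr1-/-).

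Srsf10 encodes an SR protein known to act as a general splicing repressor when dephosphorylated, as in heat shock or mitosis. The gene (ENSMUSG00000028676.17, chromosome 4 from 135855747 to 135869908, plus strand, mm10) has no exon that overlaps those of another annotated gene. Its normalised reads were 156.0, 143.4, 179.4 and 383.3 in libraries 1 to 4 labelled Nupr1-/-, against 346.1, 610.9, 525.4 and 418.0 in wild type libraries 1 to 4. Library 4 labelled Nupr1-/- lay inside the wild type range, and the other 3 lay below every wild type library. The log2 difference was -1.22 ± 0.32 (SE), a 2.34-fold decrease (limma adjusted p = 0.0398, 95% interval -1.89 to -0.55). The call held in 2 of the 8 fits that left out a library, those without library 4 labelled Nupr1-/- (adjusted p = 0.0209) and without wild type library 2 (0.0460). It was lost without libraries 1, 2 and 3 labelled Nupr1-/- (0.126, 0.120 and 0.0981) and without wild type libraries 1, 3 and 4 (0.0589, 0.111 and 0.0786), with the log2 difference between -1.54 and -1.07 throughout. DESeq2 passed the gene (adjusted p = 0.0171), and edgeR with TMM factors did not (0.0682).

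The base composition of the transcripts moved with the groups. Genes were sorted into 10 classes of equal size by the GC content of their longest protein-coding transcript, and the class with the least GC (33.0% to 41.7%, 1090 genes) had a median log2 difference of -0.67. Srsf10, at 41.4% GC, belongs to it. After a GC and length trend was taken out of each library, the log2 difference of Srsf10 was -0.71 ± 0.31 (SE, limma adjusted p = 0.374). The same removal left 25 of 10889 genes past the threshold (0.230%). Whether the trend is technical was not tested.

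Srsf4, Srsf5 and Srsf6 form a subfamily whose proteins carry a second, atypical RNA recognition motif. Srsf5 was the member whose groups did not overlap, Srsf4 parted the groups except for a single library, and Srsf6 differed little. To set the 3 genes side by side, the bases upstream of their RefSeq start sites are shown (GRCm38.p6, plus strand for all 3, 5′ to 3′, ending before the first annotated exon). Capitals mark GGGCGG, the core of a GC box, and CCGGAAG, a site type of ETS factors, on either strand. The 3 other motifs searched for, given with their shares after the sequences, were not found in these windows. Srsf4 is shown at chr4:131873387-131873616, Srsf5 at chr12:80945249-80945498 and Srsf6 at chr2:162931258-162931507.
Srsf4: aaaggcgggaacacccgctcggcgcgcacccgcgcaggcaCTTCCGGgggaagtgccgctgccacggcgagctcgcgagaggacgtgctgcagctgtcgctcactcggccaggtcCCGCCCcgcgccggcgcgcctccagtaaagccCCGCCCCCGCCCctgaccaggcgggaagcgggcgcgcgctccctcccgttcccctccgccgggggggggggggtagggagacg
Srsf5: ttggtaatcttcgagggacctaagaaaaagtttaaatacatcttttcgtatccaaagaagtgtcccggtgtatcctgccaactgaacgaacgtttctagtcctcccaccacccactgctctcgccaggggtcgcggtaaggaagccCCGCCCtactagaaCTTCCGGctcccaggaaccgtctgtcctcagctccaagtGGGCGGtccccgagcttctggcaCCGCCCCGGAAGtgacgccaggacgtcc
Srsf6: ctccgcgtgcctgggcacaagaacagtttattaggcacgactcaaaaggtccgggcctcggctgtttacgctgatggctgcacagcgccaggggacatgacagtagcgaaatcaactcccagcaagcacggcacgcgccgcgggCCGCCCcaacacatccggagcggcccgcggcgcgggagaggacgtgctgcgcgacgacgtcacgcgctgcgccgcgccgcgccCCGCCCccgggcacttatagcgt

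Among the 250 bases before the start site, GGGCGG was found in 9 of the 10 SR genes (all but Srsf3) and in 33.0% of 27025 mouse promoters of that length. Those promoters were not matched for GC content or expression, and the SR windows had 56.8% (Srsf5) to 77.2% (Srsf4) GC. The shares here therefore do not show a feature of the family beyond base composition. CCGGAAG was found in Srsf4, Srsf5, Srsf7 and Srsf11, and in 7.07% of all promoters. In Srsf5 a GGGCGG and a CCGGAAG overlap next to the start. CCAAT was found in 3 SR genes (34.5% of all promoters), TATAAA in 2 (13%) and the E-box CACGTG in 0 (6.04%). A match of letters is not a bound site. The window of Srsf10 (chr4:135855821-135856070) lies inside its annotated gene, which starts at 135855747. It is counted here, for GGGCGG and CCAAT, but is not shown.

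Srsf5 (ENSMUSG00000021134.17, chromosome 12 from 80945504 to 80950507, plus strand, mm10) had 648.9, 804.2, 741.3 and 723.2 normalised reads in libraries 1 to 4 labelled Nupr1-/-. The wild type libraries 1 to 4 had 1819.4, 921.3, 875.4 and 1472.3. Every library labelled Nupr1-/- lay below every wild type library, which held for 5.91% of all genes tested. The levels within the wild type group spanned a wider range than the gap between the groups. At -0.74 ± 0.23 (SE), the log2 difference missed the threshold (limma adjusted p = 0.0801, 95% interval -1.21 to -0.26). It passed without wild type library 2 (adjusted p = 0.0207) and in DESeq2 (0.0171), and with the GC trend removed it was -0.47 (adjusted p = 0.419).

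Srsf4 (ENSMUSG00000028911.16, chromosome 4 from 131873617 to 131901706, plus strand, mm10) had 233.3, 238.2, 648.5 and 257.4 normalised reads in libraries 1 to 4 labelled Nupr1-/-, against 479.0, 498.6, 562.3 and 744.5 in wild type libraries 1 to 4. Library 3 labelled Nupr1-/- lay inside the wild type range, and the other 3 were near each other and below it. The log2 difference was -0.86 ± 0.31 (SE, limma adjusted p = 0.126), and without library 3 labelled Nupr1-/- it was -1.21 (adjusted p = 0.0402). Unlike the low-GC members, Srsf4 has a GC content of 56.8%, and the genes of its class (55.7% to 58.0%) had a median log2 difference of 0.43. With the GC trend removed, its difference was -1.28 ± 0.30 (adjusted p = 0.0846). Of the 3561 exon bases of Srsf4, 1532 (43.0%) overlap those of Gm12992 on the opposite strand, and the library kit does not mark strand, so reads there cannot be assigned to either gene.

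Srsf6 (ENSMUSG00000016921.14, chromosome 2 from 162931528 to 162937121, plus strand, mm10) had 1884.1, 1865.3, 1762.6 and 1956.5 normalised reads in libraries 1 to 4 labelled Nupr1-/-. It had 2328.4, 2332.4, 1840.5 and 1995.4 in wild type libraries 1 to 4. The groups overlapped, and the 4 libraries labelled Nupr1-/- lay within a narrow range. On the log2 scale it differed by -0.18 ± 0.16 (SE, limma adjusted p = 0.558), with a 95% interval of -0.51 to 0.15.

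Srsf1 and Srsf9 are close paralogs. Srsf1, the founding member of the family, is known as a splicing activator and, when overproduced, as an oncoprotein. Its normalised reads were 503.1, 407.7, 303.0 and 629.6 in libraries 1 to 4 labelled Nupr1-/-, and 522.9, 1316.5, 741.8 and 579.7 in wild type libraries 1 to 4. The groups overlapped, and wild type library 2 was the highest of the 8. The log2 difference was -0.73 ± 0.29 (SE, limma adjusted p = 0.165). Without wild type library 2 it was -0.45 (adjusted p = 0.298), and with the GC trend removed -0.13 (adjusted p = 0.900). The transcript of this gene (ENSMUSG00000018379.17, chromosome 11 from 88047373 to 88053755, plus strand, mm10) has a GC content of 40.6%.

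Srsf9 (ENSMUSG00000029538.14, chromosome 5 from 115327177 to 115333080, plus strand, mm10) was the least read of the 10, with 15 to 141 recovered reads per library. It had 89.0, 43.6, 13.3 and 46.3 normalised reads in libraries 1 to 4 labelled Nupr1-/-, against 43.9, 138.9, 20.9 and 33.3 in wild type libraries 1 to 4. The groups overlapped over most of their range. The 95% interval of the log2 difference, -1.75 to 1.35 around -0.20, was the widest of the 10 genes (limma adjusted p = 0.911). Within genotypes its SD on the log2 scale was 1.1, also the largest of the 10.

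Srsf3 and Srsf7 are small SR proteins that also serve as adaptors for the mRNA export receptor Nxf1, and Srsf7 adds a zinc knuckle. Srsf3 had 2168.5, 2421.5, 1892.5 and 2202.8 normalised reads in libraries 1 to 4 labelled Nupr1-/-. It had 2077.0, 2314.7, 2554.4 and 2296.9 in wild type libraries 1 to 4. Srsf7 ran from 837.9 to 971.9 in libraries labelled Nupr1-/- and from 813.6 to 1123.1 in wild type. The groups overlapped for both genes, with log2 differences of -0.09 ± 0.16 for Srsf3 (SE, limma adjusted p = 0.793, 95% interval -0.42 to 0.23) and -0.06 ± 0.18 for Srsf7 (adjusted p = 0.884, 95% interval -0.44 to 0.32). Neither interval reaches a log2 difference of 1 in either direction.

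Srsf3, Srsf6 and Srsf7 also varied little within a group. Their SD on the log2 scale within genotypes was 0.13, 0.13 and 0.16, below all but 0.473%, 0.382% and 1.38% of the genes tested, whose median was 0.58. Srsf1, Srsf4, Srsf10 and Srsf11, at 0.50 to 0.54, were close to that median. The genes compared were not matched for level, and per length Srsf3, Srsf6 and Srsf7 lay above 94.3% to 96.7% of the tested genes. The part of read depth in their small SD was not tested. Srsf3 and Srsf7 have GC contents of 40.0% and 41.6%, in the class with a median log2 difference of -0.67, and Srsf6, at 42.8%, lies in a class with -0.40. With the GC trend removed the log2 differences were 0.53 for Srsf3, 0.43 for Srsf7 and 0.22 for Srsf6 (adjusted p = 0.190, 0.381 and 0.647), so their sign turned. Both genes are on chromosome 17 of mm10, Srsf3 (ENSMUSG00000071172.13) at bases 29032628 to 29043373, plus strand, and Srsf7 (ENSMUSG00000024097.11) at bases 80200080 to 80207307, minus strand.

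Srsf2, an SR protein that recognises exonic enhancers and whose human counterpart is recurrently mutated in myeloid malignancies, had 1382.5, 1066.1, 1879.2 and 1682.4 normalised reads in libraries 1 to 4 labelled Nupr1-/-. Wild type libraries 1 to 4 had 1796.4, 2828.0, 1634.2 and 1597.0. The groups overlapped, and wild type library 2 stood far above the rest. The difference on the log2 scale was -0.38 ± 0.21 (SE, limma adjusted p = 0.342), and -0.19 without wild type library 2 (adjusted p = 0.597). The gene (ENSMUSG00000034120.18, chromosome 11 from 116849901 to 116853094, minus strand, mm10) shares 748 of its 2958 exon bases (25.3%) with Mettl23 and Mfsd11 on the opposite strand, where reads cannot be assigned.

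Srsf11, an SR protein with a single RNA recognition motif that contacts U2AF, was the member with a log2 difference above 0. It had 969.8, 1020.0, 1492.3 and 1034.3 normalised reads in libraries 1 to 4 labelled Nupr1-/-, against 542.4, 1599.3, 813.6 and 756.6 in wild type libraries 1 to 4. Wild type library 2 was above every library labelled Nupr1-/-, and the other 3 wild type libraries were below all of them. On the log2 scale the difference was 0.38 ± 0.27 (SE, limma adjusted p = 0.456) and 0.68 without wild type library 2 (adjusted p = 0.0518). With the GC trend also removed and that library left out, it was 0.97 (adjusted p = 0.0224). Its locus (ENSMUSG00000055436.18) spans bases 158010473 to 158036639 of chromosome 3, minus strand, mm10.

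**Figure D2:**
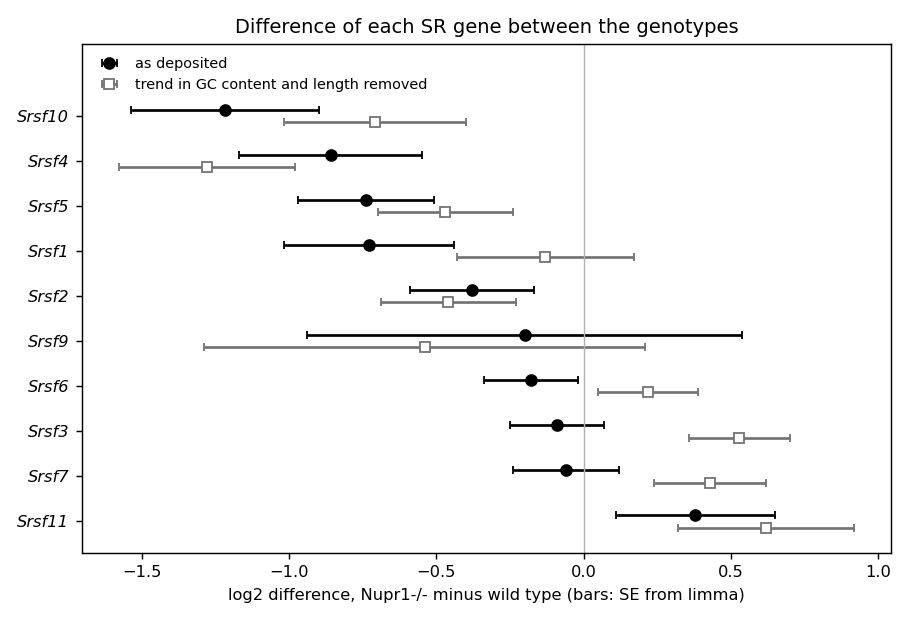
Log2 difference between the genotypes for each SR gene, libraries labelled Nupr1-/- minus wild type, with the limma SE as bars, from the deposited values (filled) and after removal of the GC and length trend (open). Srsf10 was lowest as deposited (-1.22), and Srsf4 (-1.28) was lowest once the trend was removed.

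**Figure D3:**
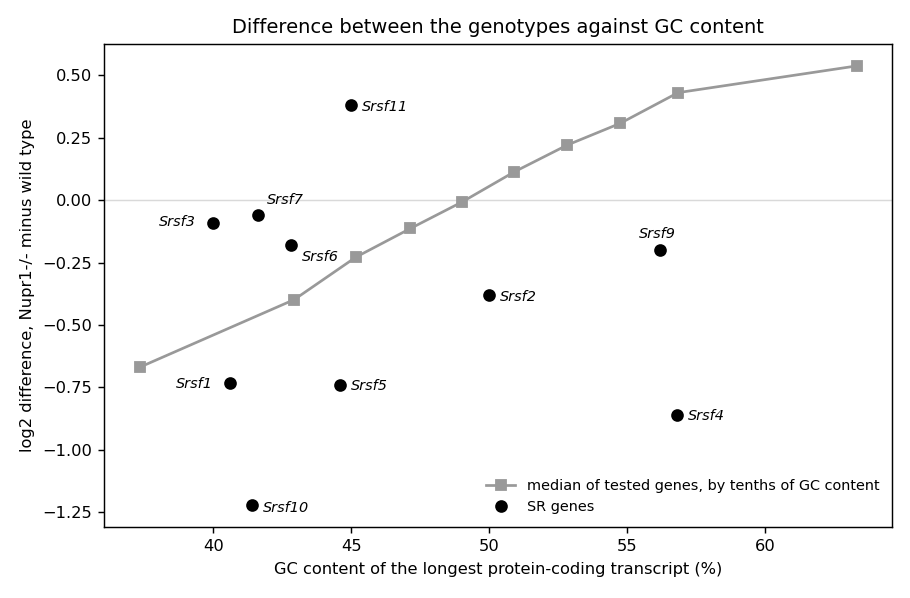
Log2 difference between the genotypes (libraries labelled Nupr1-/- minus wild type) against the GC content of the longest protein-coding transcript, for the 10 SR genes (points) and for the median of all tested genes in 10 classes of GC content (line, each at the middle of its range). The line climbs from -0.67 in the class with the least GC to 0.54 in the class with the most, and 6 of the 10 SR genes (Srsf1, Srsf2, Srsf4, Srsf5, Srsf9 and Srsf10) lie below the median of their class.

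Over all 10 genes, the GC content ranged from 40.0% (Srsf3) to 56.8% (Srsf4), and 7 of the 10 lay below the median of the tested genes, 49.9%. Once the trend was removed, 6 of the 10 log2 differences were below 0, against 49.5% of all genes, and the family median was -0.29. None of the 10 passed then with limma, while 4 had an unadjusted p under 0.05, as did 11.9% of all genes. These 4 went in both directions, with Srsf4 (-1.28) and Srsf10 (-0.71) lower and Srsf3 (0.53) and Srsf7 (0.43) higher.

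Per length, Srsf2 had the highest mean level of the 10 SR genes over the 8 libraries and Srsf9 the lowest. As normalised reads per kilobase of the union of annotated exons, Srsf2 stood at 508 ± 120 in libraries labelled Nupr1-/- and 664 ± 197 in wild type (SD, n = 4 each). Srsf6 was next, at 388 ± 16.6 in libraries labelled Nupr1-/- and 442 ± 51.2 in wild type. Srsf3 had 275 ± 27.5 per kilobase in libraries labelled Nupr1-/- and 293 ± 24.7 in wild type, and Srsf7 had 263 ± 18.1 in libraries labelled Nupr1-/- and 276 ± 37.8 in wild type. Srsf5 followed with 183 ± 16.0 in libraries labelled Nupr1-/- and 319 ± 114 in wild type. These 5 genes lay above 93.8% to 97.9% of the tested genes on the same scale.

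The lower group held Srsf4, Srsf11 and Srsf1, with means over the 8 libraries of 129, 122 and 110 per kilobase. Srsf10 had 30.8 ± 16.1 in libraries labelled Nupr1-/- and 67.8 ± 16.7 in wild type, and Srsf9 had 29.1 ± 18.8 in libraries labelled Nupr1-/- and 35.8 ± 32.6 in wild type. From Srsf2 to Srsf9 the mean level dropped 18-fold. Neighbours in this order were often not parted: Srsf2 exceeded Srsf6 in 7 of 8 libraries, Srsf10 exceeded Srsf9 in 6 of 8, Srsf7 exceeded Srsf5 in 6 of 8, Srsf3 exceeded Srsf7 in 5 of 8 libraries, and Srsf4 exceeded Srsf11, and Srsf11 exceeded Srsf1, in 4 of 8. By contrast Srsf6 exceeded Srsf3, Srsf5 exceeded Srsf4, and Srsf1 exceeded Srsf10 in all 8. The order depends on the length used, since per kilobase of the longest protein-coding transcript Srsf3 and Srsf5 came right after Srsf2. Full lengths were used although reads over 43.0% of the exon bases of Srsf4 and 25.3% of those of Srsf2 cannot be assigned. How this moves the places of Srsf4 and Srsf2 was not tested.

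**Figure D4:**
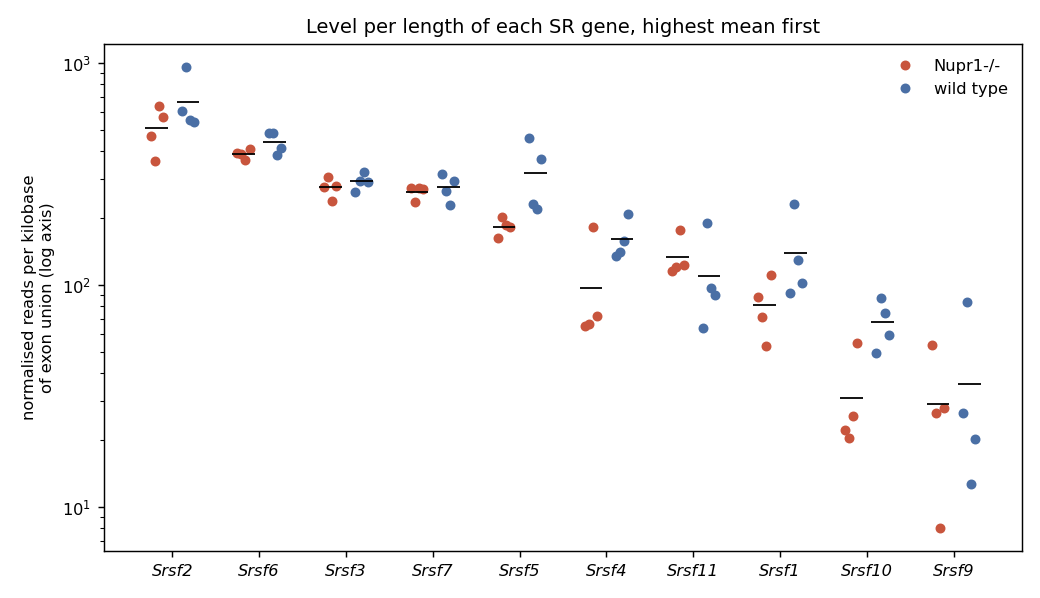
Normalised reads per kilobase of exon union (log axis) for the 10 SR genes in order of their mean over the 8 libraries, with 4 points per genotype and the group mean as a line. The means run from 586 for Srsf2 to 32.5 for Srsf9.

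The ratio of a pair of paralogs within a library does not depend on the size factor of that library, and 5 pairs were compared by an exact permutation test over the libraries (two-sided, 70 assignments, smallest possible p 0.0286). The log2 ratio of Srsf5 to Srsf6 was -1.54, -1.21, -1.25 and -1.43 in libraries 1 to 4 labelled Nupr1-/-, against -0.36, -1.34, -1.07 and -0.44 in wild type libraries 1 to 4. Wild type library 2 lay among the libraries labelled Nupr1-/-, and the other 3 lay above them. The difference of -0.56 did not pass (exact p = 0.0857, adjusted over the 5 pairs 0.429). For Srsf4 to Srsf6 the log2 ratio averaged -2.58 ± 0.76 in libraries labelled Nupr1-/- and -1.91 ± 0.41 in wild type (SD, n = 4 each, exact p = 0.200, adjusted 0.5).

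The other 3 pairs did not pass either. Srsf3 exceeded Srsf7 by 1.21 ± 0.24 in libraries labelled Nupr1-/- and by 1.24 ± 0.32 in wild type on the log2 scale of reads (SD, n = 4 each), with an exact p of 0.886. Srsf1 exceeded Srsf9 by 3.46 ± 0.82 in libraries labelled Nupr1-/- and 3.99 ± 0.81 in wild type (n = 4 each, exact p = 0.4). Srsf4 lay below Srsf5 by a log2 ratio of -1.23 ± 0.70 in libraries labelled Nupr1-/- and -1.11 ± 0.56 in wild type (n = 4 each, exact p = 0.800). With the GC trend removed, Srsf4 to Srsf6 (-1.5) and Srsf5 to Srsf6 (-0.69) each parted the groups at the smallest possible exact p of 0.0286, which is 0.0714 adjusted over the 5 pairs. Srsf4 to Srsf5 then differed by -0.81 (exact p = 0.114, adjusted 0.190).

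**Figure D5:**
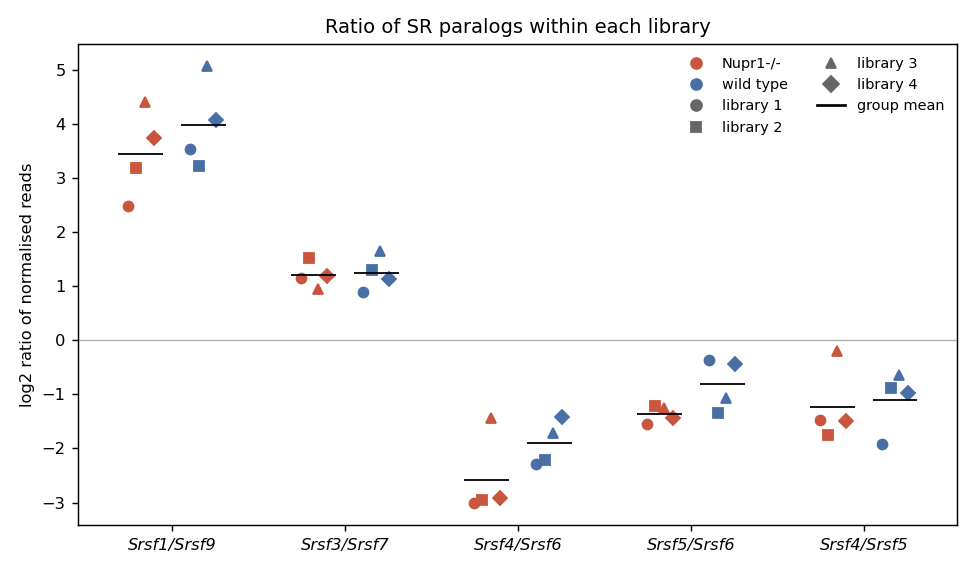
Log2 ratio of normalised reads of 5 pairs of SR paralogs in each library, with the group mean as a line. Srsf3 to Srsf7 has overlapping ratios in the genotypes (means 1.21 in libraries labelled Nupr1-/- and 1.24 in wild type), and library 3 labelled Nupr1-/- stands apart for Srsf4 to Srsf6 (-1.44).

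In the GENCODE M21 annotation, 9 of the 10 SR genes have at least 1 transcript marked as a target of nonsense-mediated decay, the exception being Srsf10, against 30.9% of the 10537 protein-coding genes tested. A retained-intron transcript is annotated for 8 of the 10 (not Srsf9 or Srsf10), against 62.2%. Srsf11 has the most annotated transcripts, 19, of which 11 retain an intron and 3 are decay targets. These are annotations, and the reads behind each transcript were not given separately.

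None of the 10 shared a stretch of 50 bases with another member. Of the 50-base windows in the longest protein-coding transcript, 31.5% in Srsf3, 27.8% in Srsf5 and 10% in Srsf10 recur in other annotated genes, so reads from those windows may have been left out or split. Those of Srsf5 and Srsf10 are processed pseudogenes, while for Srsf3 they include Gm12355, annotated as protein-coding. For Srsf6, Srsf9 and Srsf11 no window recurred. In Srsf2 (35.2%) and Srsf4 (65.4%) the shared windows are those of the genes on the opposite strand.

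Among the proteins that work with the SR family, 4 genes passed the limma test and all 4 fell (Srrm1, Acin1, Snrpb2 and Snrnp70). They were 2 of 22 tested SR-related proteins and 2 of 18 tested genes of U1, U2 and 3′ splice site recognition. The other lists, of 9, 15 and 14 tested genes, had 0. Across all genes tested 3.80% passed, 2.12% of them all being lower. Of 9 tested SR kinases and import factors, 0 rose and 0 fell, and DESeq2 called 1. Their median log2 difference was -0.07, and 0.16 with the GC trend removed. The unadjusted limma p was under 0.05 in 2 of them (22.2%, against 19.7% of all genes tested). Clk4, a kinase that phosphorylates SR proteins in the nucleus, had 395 ± 113 normalised reads in libraries labelled Nupr1-/- and 665 ± 137 in wild type (limma adjusted p = 0.0919). Its relative Clk2 had 381 ± 67.8 in libraries labelled Nupr1-/- against 239 ± 74.8 in wild type (adjusted p = 0.182; SD, n = 4 each).

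Of 22 tested SR-related proteins, 0 rose and 2 fell (median log2 difference -0.16, and 0.14 with the GC trend removed). Srrm1, a coactivator that bridges SR proteins and the spliceosome, had 297.5, 150.9, 258.0 and 413.0 normalised reads in libraries 1 to 4 labelled Nupr1-/-, against 868.3, 501.6, 587.3 and 863.1 in wild type libraries 1 to 4. The groups did not overlap, with the log2 change being -1.38 ± 0.30 (limma SE; adjusted p = 0.0191 with the same tool). It passed in 4 of 8 leave-one-out fits (highest adjusted p 0.0637) and with the GC trend removed (log2 change -1.55, adjusted p = 0.0245). Acin1, an apoptosis-linked component deposited with the exon junction complex, was 107 ± 33.3 in libraries labelled Nupr1-/- against 275 ± 85.2 in wild type (SD, n = 4 each), a log2 change of -1.35 ± 0.35 (SE, adjusted p = 0.0393). It passed in 2 of these fits, and with the GC trend removed its log2 difference was -1.63 (adjusted p = 0.0626).

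Of 18 tested genes of U1, U2 and 3′ splice site recognition, 0 rose and 2 fell (median log2 difference -0.16, and -0.23 with the GC trend removed). In 8 of them the unadjusted p was under 0.05 (44.4%, against 19.7% of all genes tested, of which 2.12% fell). The counts moved with the fit: DESeq2 called 1 higher and 3 lower, and without wild type library 2 3 were higher and 2 lower. With no filter on low values or with the GC trend removed, 0 were lower. Snrnp70, the U1 protein that the tail of an SR protein contacts, had 24.8, 21.2, 18.6 and 60.2 normalised reads in libraries 1 to 4 labelled Nupr1-/-. In wild type libraries 1 to 4 it had 246.5, 99.5, 66.8 and 159.5, so the groups did not overlap (log2 change -2.16 ± 0.58, SE, limma adjusted p = 0.0466). Snrpb2, a protein of the U2 particle, was 219 ± 81.3 in libraries labelled Nupr1-/- against 467 ± 114 in wild type (SD, n = 4 each; log2 change -1.13 ± 0.31, SE, adjusted p = 0.0463). Both calls held in 2 of 8 leave-one-out fits. With the GC trend removed the log2 difference was -2.68 for Snrnp70 (58.5% GC, adjusted p = 0.0657) and -0.45 for Snrpb2 (39.3% GC, adjusted p = 0.582).

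Neither the 15 tested genes of the exon junction complex and nonsense-mediated decay nor the 14 of mRNA export had a gene past the threshold with limma. The unadjusted limma p was under 0.05 in 2 (13.3%) and 5 (35.7%) of them, against 19.7% of all genes tested. DESeq2 called 1 gene of the first list, lower, and 0 of the second. Without wild type library 2, 1 gene of the first list was higher and 1 lower. Magoh, a core subunit of the exon junction complex, was 224 ± 48.1 in libraries labelled Nupr1-/- and 447 ± 120 in wild type (limma adjusted p = 0.0585), and Smg5, a decay factor, 235 ± 44.4 in libraries labelled Nupr1-/- and 156 ± 139 in wild type (adjusted p = 0.253). Ddx39, an RNA helicase of mRNA export, was 514 ± 32.1 in libraries labelled Nupr1-/- against 332 ± 43.2 in wild type (adjusted p = 0.122) and Thoc7, a subunit of the THO complex, 241 ± 58.3 in libraries labelled Nupr1-/- against 423 ± 176 in wild type (adjusted p = 0.166; SD, n = 4 each). The median log2 difference was -0.20 for the decay list and -0.10 for the export list, beside 0.03 for all genes tested. With the GC trend removed the medians were -0.09, -0.08 and 0.007.

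The gene most like each SR gene was taken as the one with the smallest root mean square difference in log2 values, centred on the mean of the 8 libraries. For Srsf1 it was Hnrnpu, a nuclear RNA-binding protein, with a difference of 0.12 (log2 difference between genotypes -0.71, limma adjusted p = 0.0996). For Srsf3 it was Sumo2 (0.08), for Srsf6 Lcp2 (0.07) and for Srsf7 Bcl7b (0.06) (log2 differences between genotypes -0.06, -0.20 and -0.09; limma adjusted p = 0.881, 0.615 and 0.879). Srsf10 was nearest to Ctdspl2 (0.19, log2 difference -1.34, adjusted p = 0.0990), and Srsf4 to Dnajb14 (0.20). Srsf2, Srsf5, Srsf9 and Srsf11 were nearest to Trim6 (0.15), Gm2178 (0.13), Adora2a (0.33) and Slc20a1 (0.14). Libraries of both genotypes entered the measure, so a like difference between genotypes follows from the choice and is no separate result. Within the family the closest pair was Srsf6 and Srsf7 (0.14), with 14 tested genes nearer to Srsf6 than Srsf7 was. The measure is not scaled by variation, so genes that vary little come out as alike. The log2 SD over the 8 libraries was 0.15 for each of the pair, so 0.14 does not show a shared pattern. For the members outside this pair, 94 (Srsf3) to 1421 (Srsf11) tested genes were nearer than the nearest member. Srsf1 and Srsf10 were 0.43 apart.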

How the data were processed

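RNA was measured in 8 libraries, 4 labelled Nupr1-/- and 4 wild type, 1 per mouse. The submitters' processing notes name bcl2fastq, HISAT2, featureCounts, Subread, DESeq2 and the build mm10, and versions, settings and strand handling are not given in the sources used here. Deposited by the authors, the values are a normalised signal: although the table is called raw counts, each library is read counts divided by 1 size factor. Whole reads were recovered for all values within a tolerance of 0.001. In wild type library 3 the size factor is so near 1 that recovery rests on low values.

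The main test was limma 3.58.1 (R 4.3.3, trend and robust) on log2 of the value plus 1, for genes reaching 10 in 4 or more libraries. This kept 10989 genes, left out 865 and 1 entry without a name, and adjusted p by Benjamini-Hochberg at 0.05. Fold changes on this scale understate the change of low genes. Alternatives were edgeR 4.0.16 and DESeq2 1.42.0 on recovered reads, limma-voom with sample weights, other pseudocounts, no filter, each library left out, a replicate block and removal of a GC and length trend. Annotation was GENCODE M21 (11716 of 11854 names matched, 453 by an older symbol); promoters are from RefSeq GRCm38.p6.

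Named genes are the 10 members, Nupr1, called genes of each list (at most 3; with fewer than 2, the 2 of smallest p) and each member's nearest gene. Members and lists were chosen with earlier results of these data known. Library numbers are not said to pair mice, so they were not treated as pairs. Same-numbered libraries did not deviate together (correlations -0.0566 to 0.0148), which cannot show that they are unpaired.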

Additional observations from a re-analysis of the deposited data

Results flagged for a closer look

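Of 52 groups of 4 values looked at, 8 had a single library far from the other 3 (Dixon's 95% critical value for the gap over the range), and chance alone flags about 1 in 20 groups. Among libraries labelled Nupr1-/-, library 3 stood above the others for Srsf4 (648.5 normalised reads, others 233.3 to 257.4) and for Srsf11 (1492.3, others 969.8 to 1034.3). The same library was apart for the log2 ratio of Srsf4 to Srsf6 (-1.44, others -3.01 to -2.92), which shares its Srsf4 value. Library 4 labelled Nupr1-/- stood above the others for Srsf10 (383.3, others 143.4 to 179.4) and for Snrnp70 (60.2, others 18.6 to 24.8). Library 2 labelled Nupr1-/- was below the others for Srsf7 (837.9, others 955.6 to 971.9). Wild type library 2 was above the others for Srsf2 (2828.0, others 1597.0 to 1796.4) and for Smg5 (363.6, others 80.8 to 93.7).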

How the results depend on the processing

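Of all tested genes, 185 were higher and 233 lower in libraries labelled Nupr1-/-. DESeq2 gave 333 higher and 442 lower, limma-voom with sample weights 285 and 358, and leaving out a library 14 to 452 higher and 35 to 429 lower, with most calls without wild type library 2. With the GC and length trend removed 5 were higher and 20 lower, also with the replicate block (5 and 20), and without wild type library 2 as well 108 and 105. The replicate numbers are not said to pair mice, and no library correlated best with its own number, a check that cannot show that they are unpaired. The replicate block gave 115 higher and 162 lower, with 0 of the U1 and U2 list lower. Of the SR genes, 1 was lower. DESeq2 gave 2, limma-voom 3, leaving out a library 0 to 2, and edgeR with TMM or RLE factors, the replicate block, and the GC removal with or without the block each gave 0. With the trend removed and wild type library 2 left out, 1 was higher (Srsf11) and 1 lower (Srsf4). For Srsf10 the adjusted p was 0.0682 and 0.0704 with edgeR, 0.0529 under the replicate block and 0.374 with the trend removed.

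Signs turned as follows. With the trend removed, alone and with the block, the log2 difference was 0.53 for Srsf3, 0.22 for Srsf6 and 0.43 for Srsf7, and without wild type library 2 as well 0.61, 0.33 and 0.49, with 0.21 for Srsf1 and 0.03 for Srsf9. Srsf9 was 0.27 with limma-voom and -0.58 to 0.33 leaving out a library, and Srsf7 -0.15 to 0.01. The ratio differences with the trend removed were 0.41 for Srsf1 to Srsf9, 0.10 for Srsf3 to Srsf7, -1.5 for Srsf4 to Srsf6, -0.69 for Srsf5 to Srsf6 and -0.81 for Srsf4 to Srsf5. Leaving out a library they were -0.15 to 0.11 for Srsf3 to Srsf7 and -0.46 to 0.06 for Srsf4 to Srsf5. Per kilobase of the longest protein-coding transcript, mean levels were 913 for Srsf2, 856 for Srsf3, 203 for Srsf4, 638 for Srsf5, 566 for Srsf6, 398 for Srsf7, 92.0 for Srsf10 and 331 for Srsf11, by construction of the shorter length. For the other changes the cause was not tested. Srsf9 had the fewest reads, 15 to 141 per library; what its depth limits was not tested.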
